A study of Homo sapiens with 6 samples.

Results

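The E2F transcription factors and the pocket proteins that bind them were examined in HT1080 cells, a human fibrosarcoma line, with and without stable overexpression of PGK1, the glycolytic enzyme phosphoglycerate kinase 1. The members were the rows of the deposited count table whose symbol is E2F1 to E2F8, RB1 or RBL1, which gave 10 genes of 21619 entries, each with 1 row. PolyA RNA had been sequenced from 3 libraries labelled PGK1 WT and from 3 labelled PGK1 OE, called WT and PGK1_OE below, all under 1 batch label. The sample descriptions of the WT libraries read v511-1 to v511-3, a label not explained in the sources used here. Those sources do not give the vector status of the WT cells, nor whether the overexpressing line is 1 clone or a pool. The series was made to study what PGK1 does in these cells, and the comparison below asks how each member differed between the groups.

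In the textbook scheme, pocket proteins hold E2F factors on the promoters of S-phase genes and silence them until cyclin-dependent kinases phosphorylate the pocket proteins and free the E2Fs. E2F1, E2F2 and E2F3 are the activators, bound mainly by RB1. E2F4 and E2F5 act mainly as repressors with RBL1 and its relative RBL2, and E2F6 represses without a pocket protein, as part of a Polycomb complex. E2F7 and E2F8 are the atypical members, which bind DNA without a DP partner and shut E2F target genes off again late in S phase. Several of these genes are themselves known E2F targets.

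The libraries held between 34425162 and 40538274 counts. PGK1 went from 523 ± 4.03 to 12660 ± 597 normalised CPM (SD, n = 3), in the direction its labels give. Levels are given in normalised CPM, the count relative to a library total that had been rescaled by TMM. Log2 fold changes compare PGK1_OE with WT and carry their standard error (SE). The quasi-likelihood test of edgeR gave the p-values, with Benjamini-Hochberg adjustment across the 14322 entries that were tested. A gene was called changed at an adjusted p under 0.05. Separate cultures are not stated for the replicates, and the p-values therefore rest on a spread between libraries that may be technical. Of 9 mesenchymal markers, all were detected, 7 rose and 2 fell, and their summed level was 2352 to 2577 FPKM in WT and 3627 to 3747 FPKM in PGK1_OE. The 8 epithelial markers summed to at most 1.51 FPKM, with EPCAM, GRHL2 and RAB25 at 0 counts, the 6 blood markers to at most 1.39 FPKM, with PTPRC and CD14 at 0, and the 4 endothelial markers to at most 2.47 FPKM. All 3 of those sums differed between the groups, and their part in the results was not tested.

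The promoters of the members with a window in the reference table were read, because E2F genes are known for E2F sites close to their own starts. RefSeq windows on GRCh38.p14 (hg38, the build the submitters name), from 250 bases before to 50 after a gene's start, were found for 8 of the 10 members, not for E2F5 or E2F8. They were searched on both strands for the E2F letters TTTCCCGC, TTTCGCGC, TTTGCCGC and TTTGGCGC. These letters stood in windows of 4 of the 8 members, E2F1, E2F2, E2F3 and RBL1. Of 35116 RefSeq windows of the same length 3.31% held them, a share of windows and not of genes. The last 120 bases before the start are shown for those 4 members and, as a member without the letters, for E2F7. They are given 5′ to 3′ on the gene's strand, with the E2F letters, or their reverse complement, in capitals.
E2F1 (chr20:33686386-33686505, minus strand): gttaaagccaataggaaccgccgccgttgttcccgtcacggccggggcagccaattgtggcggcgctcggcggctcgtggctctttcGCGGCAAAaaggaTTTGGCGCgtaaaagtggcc
E2F2 (chr1:23531234-23531353, minus strand): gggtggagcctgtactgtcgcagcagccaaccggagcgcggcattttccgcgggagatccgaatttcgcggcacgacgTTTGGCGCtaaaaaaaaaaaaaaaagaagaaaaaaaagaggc
E2F3 (chr6:20401759-20401878, plus strand): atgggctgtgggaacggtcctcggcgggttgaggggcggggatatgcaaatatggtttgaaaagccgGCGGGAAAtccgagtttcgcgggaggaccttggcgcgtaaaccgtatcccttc
RBL1 (chr20:37095998-37096117, minus strand): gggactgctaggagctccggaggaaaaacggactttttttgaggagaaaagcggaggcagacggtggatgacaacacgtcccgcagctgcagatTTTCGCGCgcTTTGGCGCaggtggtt
E2F7 (chr12:77065570-77065689, minus strand): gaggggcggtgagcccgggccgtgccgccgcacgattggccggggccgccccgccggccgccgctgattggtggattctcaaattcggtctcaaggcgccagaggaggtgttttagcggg

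E2F1 and RBL1 each held 2 matches, in E2F1 at 33 to 26 and 20 to 13 bases before the start and in RBL1 at 26 to 19 and 16 to 9 bases before it. E2F2 held 1 match at 42 to 35 bases and E2F3 held 1 at 53 to 46 bases before the start. A second RefSeq window of E2F3, 1735 bases downstream of the first, held none, nor did the windows of E2F4 and E2F6. The single RefSeq window of RB1 lies 172724 bases inside the GENCODE gene, so it does not describe the usual RB1 promoter. A match is a run of letters and not a measured site, and no binding was measured here. Of the members with matches, E2F1, E2F2 and RBL1 rose and E2F3 did not, as the values below show.

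Of the 10 members 5 rose and 5 fell, and none was left uncalled, against 71.2% of all entries called, 35.4% higher and 35.8% lower. The groups did not overlap in normalised CPM for any of the 10, nor for 76.4% of all entries tested, so the count of calls is read against a background in which most genes were called. The members differed in size of change. E2F2 (5.85), E2F8 (3.65), E2F1 (3.38) and RBL1 (2.18) had larger absolute log2 fold changes than 99.5%, 98.8%, 98.4% and 94.4% of the entries tested, whereas E2F3 and RB1 had larger ones than 12.0% and 11.3%. The median log2 fold change of the members was -0.0026, since the rises and falls were equal in number, and that of all entries was -0.02. All 10 passed the filter on low counts, E2F2 only through its PGK1_OE libraries, so that its place among the tested genes was set by the group in which it was high. In bulk RNA, more cells that express a gene and more of its mRNA in each cell cannot be told apart.

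**Figure D1:**
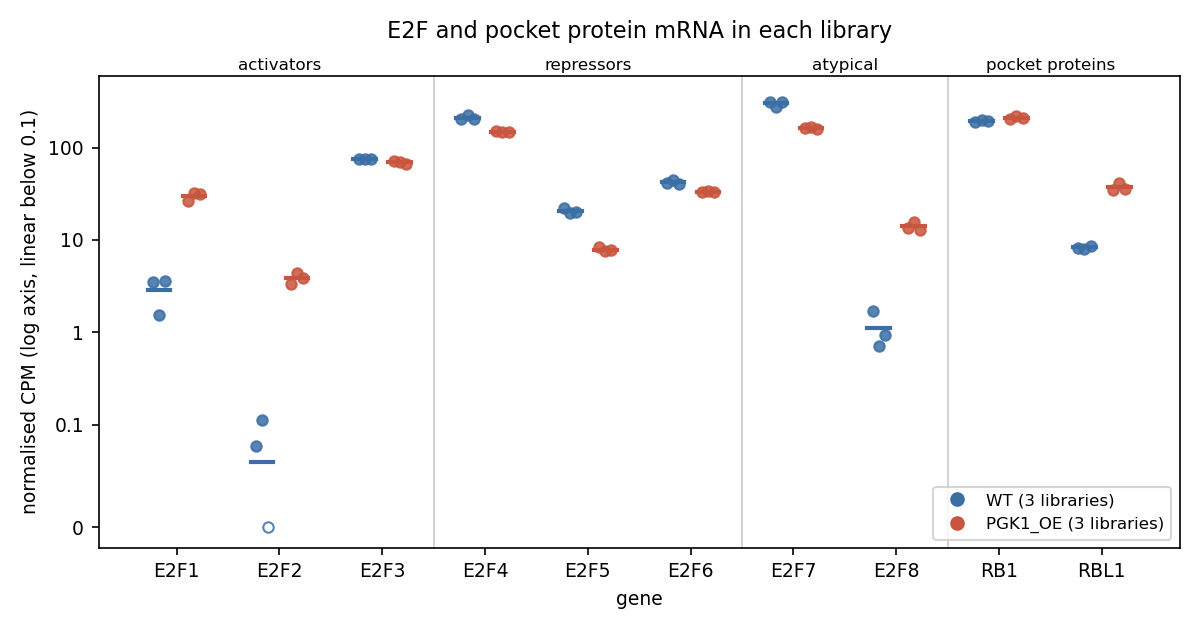
Normalised CPM of each member (log axis, linear below 0.1 CPM) in the 3 WT libraries (blue) and the 3 PGK1_OE libraries (red), with a bar at each group's mean and an open circle at 0. E2F1, E2F2, E2F8 and RBL1 stood far apart between the groups, from 8.32 to 37.6 CPM in the case of RBL1, while E2F3 and RB1 lay close together.

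Among the activators, E2F1 rose 10.4-fold. E2F1 (ENSG00000101412, chromosome 20, 33675683 to 33686404, minus strand) stood at 3.51, 1.53 and 3.61 CPM in WT replicates 1, 2 and 3 and at 26.3, 32.6 and 31.1 CPM in the PGK1_OE replicates. Every PGK1_OE library was above every WT library, and WT replicate 2, with 54 counts against 133 and 132, was the lowest of all. On the log2 scale the difference was 3.38 ± 0.35 (SE), with an edgeR adjusted p of 4.48e-04. Without WT replicate 2 it was 3.08 (edgeR adjusted p = 4.60e-09), so the rise did not rest on that library.

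E2F2, the activator with the lowest level, went from near absence to a low level. E2F2 (ENSG00000007968, chromosome 1, 23506430 to 23531220, minus strand) had 3, 4 and 0 counts in WT against 133, 175 and 138 counts in PGK1_OE. Its sum over the libraries went from 7 to 446 counts, a ratio of 60.9 with an exact 95% interval of 29.3 to 152 that covers counting error only. On the CPM scale it was 0.0641 ± 0.0581 in WT and 3.88 ± 0.544 in PGK1_OE (log2 fold change 5.85, SE 0.58, edgeR adjusted p = 7.75e-06). It was 6.49 without WT replicate 2 and 5.30 without WT replicate 3. As log2(FPKM + 1), a scale on which changes of low genes come out too small, the difference was 0.74.

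E2F3, the third activator, moved little and in the other direction. E2F3 (ENSG00000112242, chromosome 6, 20401906 to 20493715, plus strand) measured 74.7, 75.2 and 76.1 CPM in the WT replicates against 72.1, 69.5 and 66.8 in the PGK1_OE replicates. On the log2 scale the difference was -0.12 ± 0.05 (SE), with an edgeR adjusted p of 0.0394. Its interval was -0.21 to -0.03 (95%, normal approximation from the SE). The call was lost with DESeq2 (adjusted p = 0.0596), with the replicate block (0.0602), with no low-count filter (0.0575), without WT replicate 1, 2 or 3 (0.0836, 0.0719 and 0.119) and without PGK1_OE replicate 2 or 3 (0.0793 and 0.132). On the FPKM scale the fall was larger, between -0.24 and -0.22. Counts per gene do not separate E2F3a from E2F3b, the products of its 2 promoters.

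The repressor E2Fs all fell. E2F4, the most abundant E2F per length in both groups, measured 204, 225 and 206 CPM in the WT replicates against 150, 147 and 148 in the PGK1_OE replicates (log2 fold change -0.51, SE 0.04, edgeR adjusted p = 7.24e-07). E2F4 (ENSG00000205250) lies on chromosome 16, 67192169 to 67198918, plus strand. The WT libraries were all higher, and WT replicate 2 was the highest of them.

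E2F5 had the largest fall of the members, 2.64-fold. E2F5 (ENSG00000133740, chromosome 8, 85177225 to 85217158, plus strand) measured 22.4, 19.4 and 20.3 CPM in the WT replicates against 8.32, 7.51 and 7.75 in the PGK1_OE replicates, with no overlap (log2 fold change -1.40, SE 0.10, edgeR adjusted p = 1.44e-07). E2F5 exons share 969 bases with RBIS, a ribosome biogenesis gene on the opposite strand that GENCODE 29 lists as C8orf59, and whether counting used strand is not given. RBIS itself had 702, 602 and 686 counts in WT against 726, 690 and 637 counts in PGK1_OE, and its groups overlapped. E2F6 (ENSG00000169016, chromosome 2, 11444375 to 11466177, minus strand) measured 41.4, 45.0 and 39.9 CPM in the WT replicates against 33.3, 33.5 and 32.9 in the PGK1_OE replicates, the smallest of the 3 repressor falls (log2 fold change -0.34, SE 0.06, edgeR adjusted p = 3.41e-04). GENCODE lists 7 processed pseudogenes named after members, 4 of them of E2F6, 2 of E2F3 and 1 of E2F4. None of the 7 has a row in the table, so reads they share with these genes cannot be traced.

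The atypical E2Fs moved in opposite directions. E2F7 (ENSG00000165891, chromosome 12, 77021247 to 77065580, minus strand), the member with the most CPM in WT, measured 316, 279 and 312 CPM in the WT replicates against 161, 167 and 160 in the PGK1_OE replicates. E2F7 fell 1.86-fold (log2 fold change -0.89, SE 0.05, edgeR adjusted p = 1.88e-08) with all PGK1_OE libraries below all WT libraries. E2F8 (ENSG00000129173, chromosome 11, 19224063 to 19241620, minus strand) had 64, 25 and 34 counts in WT and 542, 623 and 450 counts in PGK1_OE. In CPM it went from 1.69, 0.707 and 0.929 to 13.5, 15.7 and 12.8, a 12.6-fold rise (log2 fold change 3.65, SE 0.31, edgeR adjusted p = 1.11e-05). WT replicate 1 was the highest WT library for E2F8, and without it the log2 fold change was 4.10. On the log2(FPKM + 1) scale the E2F8 change was 1.80. As a ratio of FPKM, E2F7 exceeded E2F8 by 122, 279.8 and 221 times in WT but by 7.99, 7.06 and 8.22 times in PGK1_OE. E2F7 thus remained the more abundant of the pair in every library.

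Of the pocket proteins, RBL1 rose 4.52-fold and RB1 rose 1.08-fold. RBL1 (ENSG00000080839, chromosome 20, 36996349 to 37095995, minus strand), which pairs mainly with E2F4 and E2F5, measured 8.29, 7.98 and 8.69 CPM in the WT replicates against 35.2, 41.7 and 36.0 in the PGK1_OE replicates (log2 fold change 2.18, SE 0.09, edgeR adjusted p = 1.36e-09). Exons of RBL1 share 211 bases with the antisense gene AL136172.1, which has no row of its own in the table. RB1 (ENSG00000139687, chromosome 13, 48303726 to 48599436, plus strand), the retinoblastoma protein gene, measured 192, 200.5 and 192 CPM in the WT replicates against 205, 219 and 208 in the PGK1_OE replicates. On the log2 scale the difference was 0.11 ± 0.04 (SE), with an edgeR adjusted p of 0.0248. Its interval was 0.03 to 0.19 (95%, normal approximation from the SE). The RB1 call was lost when scaled by library totals alone (0.07, adjusted p = 0.160), on the FPKM scales (adjusted p of 0.206 to 0.244), without WT replicate 1 or 3 (0.0743 and 0.0660) and without PGK1_OE replicate 2 or 3 (0.105 and 0.0573). RBL2, the pocket protein outside the member list, averaged 74.2 ± 3.30 CPM in WT against 69.7 ± 1.12 in PGK1_OE and was not called (-0.09 ± 0.05 on the log2 scale, edgeR adjusted p = 0.115). Its interval was -0.18 to 0.00 (95%, normal approximation from the SE), and the difference was -0.05 without WT replicate 3. It was called lower with library totals (-0.14, adjusted p = 0.0217) and on the FPKM scales (adjusted p of 0.0452 to 0.0489). RBL2 exons share 610 bases with AKTIP and 721 with AC007342.6 on the opposite strand, which leaves its value uncertain. The FPKM ratio of RB1 to RBL1 went from 28.2 ± 1.99 in WT to 6.88 ± 0.367 in PGK1_OE.

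**Figure D2:**
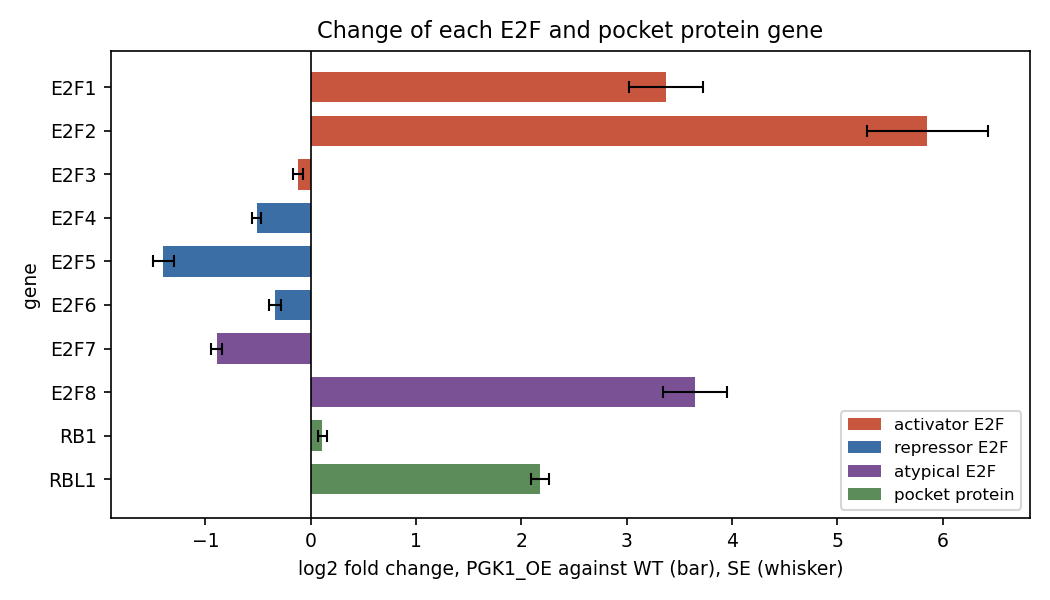
Log2 fold change of each member, PGK1_OE against WT (bars, coloured by role), with the SE of the fit (whiskers). The 3 repressors lie between -1.40 and -0.34, the activators E2F1 and E2F2 at 3.38 and 5.85, and the atypical pair on either side of 0.

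Per length, the order of the members changed between the groups. In WT the deposited FPKM gave E2F4 (95.2 ± 5.80), E2F7 (51.4 ± 1.42), RB1 (40.1 ± 1.09), E2F3 (15.8 ± 0.148), E2F6 (13.9 ± 2.01), E2F5 (9.19 ± 0.537), RBL1 (1.42 ± 0.0698), E2F1 (1.01 ± 0.407), E2F8 (0.281 ± 0.132) and E2F2 (0.00891 ± 0.00860). Only E2F3 and E2F6 overlapped among neighbours in that order. In PGK1_OE the order was E2F4 (64.7 ± 0.772), RB1 (42.2 ± 1.98), E2F7 (26.7 ± 0.795), E2F3 (13.4 ± 0.379), E2F1 (10.2 ± 1.10), E2F6 (10.1 ± 0.338), RBL1 (6.16 ± 0.629), E2F8 (3.47 ± 0.383), E2F5 (3.01 ± 0.285) and E2F2 (0.684 ± 0.0962). Here E2F1 overlapped with E2F6, and E2F8 with E2F5. E2F1 thus moved from below the level of RBL1 to that of E2F6, whereas E2F4 stayed first.

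The summed FPKM of E2F1 to E2F8 was 187, 190.0 and 183 in WT against 133, 133 and 131 in PGK1_OE, without overlap, so the family as a whole was lower per length while 3 of its members rose. E2F4 and E2F7, the most abundant E2Fs, carried most of that sum in both groups. The activators made up 9.01% ± 0.297 of it in WT and 18.4% ± 0.674 in PGK1_OE. E2F1 alone went from 0.541% ± 0.225 to 7.72% ± 0.846, while E2F3 held 8.46% ± 0.117 and 10.1% ± 0.300. The repressors held 62.7%, 65.0% and 62.2% in WT and 59.7%, 57.7% and 59.0% in PGK1_OE, and the atypical pair 27.7% ± 1.22 and 22.8% ± 0.690. These shares are of mRNA per length, no test was made on them, and protein and phosphorylation were not measured.

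**Figure D3:**
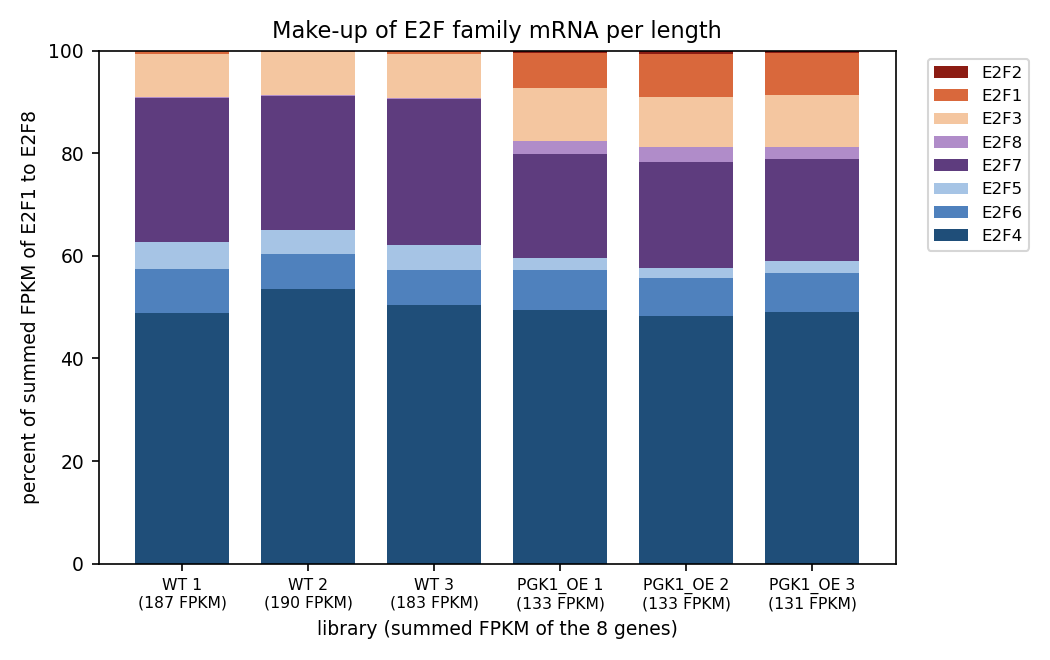
Share of each E2F gene in the summed FPKM of E2F1 to E2F8 in each of the 6 libraries, stacked to 100%, with the sum under each bar. The activator part at the top of the bars is 9.01% on average in WT and 18.4% in PGK1_OE. E2F3 is its larger part in both groups, and E2F1 goes from 0.541% to 7.72%.

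The partners, regulators and targets of the members were taken from lists that were chosen with earlier results of these data known, and they are described by their counts. The DP proteins, which pair with E2F1 to E2F6 on DNA, moved apart: TFDP1 rose by 1.78 ± 0.05 (SE) on the log2 scale, from 84.8 ± 5.47 to 291 ± 7.70 CPM, while TFDP2 fell by 0.26 ± 0.04, from 99.7 ± 0.541 to 83.4 ± 2.87 CPM. On the FPKM scale the fall of TFDP2 was far larger, between -1.14 and -1.08, and the cause was not tested. In the DREAM complex, RBL1 or RBL2 and E2F4 or E2F5 silence cell cycle genes together with the MuvB subunits. The list of DREAM and MuvB partners also holds FOXM1, MYBL1, MYBL2 and DYRK1A, which are not subunits of that silencing complex. Of its 10 genes 7 rose, 1 fell and 2 were not called, with a median of 0.50. As for every list described here, this is read against the 71.2% of all entries called, 35.4% higher and 35.8% lower. The share of this list called in either direction was close to that, but its calls were mostly higher. FOXM1 rose by 1.92, the core subunit RBBP4 by 1.24 and LIN54, the subunit that contacts DNA, by 1.11 on the log2 scale. FOXM1 shares exons with ITFG2 and RBBP4 with SYNC on the opposite strand, so both values are uncertain.

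Of 15 kinase, cyclin and inhibitor genes that set the phosphorylation of RB1 and RBL1, 12 were tested, of which 8 rose and 4 fell, with a median of 1.27, against 35.4% of all entries higher and 35.8% lower. CCND1, the D-type cyclin with the most counts, rose by 1.18 ± 0.04 (SE) on the log2 scale, from 518 ± 26.0 to 1175 ± 43.3 CPM. CCND3 also rose, by 2.19 ± 0.10, from 7.44 ± 1.10 to 34.0 ± 0.971 CPM. CCND2 fell by 3.17 ± 0.14, from 12.5 ± 0.684 to 1.39 ± 0.0750 CPM. The kinase partner CDK6 fell by 1.34 ± 0.04, from 342 ± 16.9 to 136 ± 0.960 CPM. The other kinase partner, CDK4, fell by 0.13 ± 0.04, from 306 ± 2.19 to 280 ± 11.9 CPM. CDK2, the kinase of the E-type cyclins, rose by 3.29 ± 0.12, from 10.9 ± 1.93 to 107 ± 4.88 CPM. The E-type cyclins, which are known E2F targets as well as activators of CDK2, both rose, CCNE2 by 4.85 (SE 0.19) and CCNE1 by 1.36 (SE 0.21) on the log2 scale. On the log2(FPKM + 1) scale those changes were 2.41 and 0.79. Of the 4 inhibitors tested 3 rose, CDKN2C by 3.32 ± 0.14 (SE), CDKN2D by 1.74 ± 0.13 and CDKN1B by 0.54 ± 0.07 on the log2 scale, and 1 fell. The one that fell, CDKN1A, averaged 299 ± 7.76 CPM in WT against 253 ± 28.0 in PGK1_OE (-0.24, SE 0.07, edgeR adjusted p = 0.0179). It missed the threshold without WT replicate 1 or 2 (0.0523 and 0.120) and without PGK1_OE replicate 3 (0.0547). CDKN2A and CDKN2B, inhibitors of CDK4 and CDK6, had 0 counts in all 6 libraries, which allows up to 0.0851 CPM at 3 counts per library, a limit on counting error only. CCND1 shares exons with LTO1, CCNE2 with INTS8, CDK4 with TSPAN31, CDK6 with AC002454.1 and CDKN1A with DINOL on the opposite strand. CCND2 shares exons with AC008012.1 on its own strand and CCND3 with AL513008.1 on the opposite one. CDK2 shares exons with AC025162.1 and PMEL, also on the opposite strand. The values of all these genes are therefore uncertain.

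Among the corepressors that RB1 recruits, 8 of 13 rose, 2 fell and 3 were not called, with a median of 0.51. The share called in either direction was near the 71.2% of all entries, but these calls too were mostly higher. The DNA methyltransferase DNMT1 (1.88), the histone deacetylase HDAC1 (1.29) and the scaffold SIN3A (1.05) had the smallest adjusted p-values. On the log2(FPKM + 1) scale the SIN3A change was 0.70. Of 12 genes of the Polycomb complex of E2F6, 6 were higher, 3 lower and 3 not called, with a median of 0.12. Here too the share called in either direction was near that of all entries. Its histone methyltransferase EHMT2 rose by 2.24 on the log2 scale, whereas RYBP fell from 93.0 ± 3.21 to 44.2 ± 3.22 CPM (-1.08) and the DNA-binding subunit MGA from 83.4 ± 3.14 to 47.6 ± 2.19 CPM (-0.81). All 4 genes of E2F turnover rose: SKP2 (2.84) and CCNF (2.31), which mark E2F proteins for destruction as parts of SCF ligases, their scaffold CUL1 (0.23), and FZR1 (0.86), an activator of the anaphase-promoting complex. EHMT2, CCNF and CUL1 share exons with an antisense gene. FZR1 shares exons with MFSD12, MGA with AC073657.1 and SIN3A with AC068338.2 on the opposite strand, and DNMT1 with S1PR2 on its own.

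The lists of known G1/S and G2/M targets were higher in every gene tested. These lists too were chosen with earlier results of these data known, so their counts are a description and not independent support. All 33 genes of the G1/S list rose, with log2 fold changes from 0.89 to 4.61 and a median of 2.48, against -0.02 for all entries and 35.4% of entries called higher. PCNA, the replication clamp, went from 26.2 ± 1.32 to 229 ± 7.08 CPM, the checkpoint adaptor CLSPN from 3.57 ± 0.116 to 87.2 ± 6.91 CPM, and the origin licensing factor CDC6 from 5.84 ± 0.627 to 106 ± 7.84 CPM. The E2F letters stood in the RefSeq windows of 19 of 28 G1/S genes that have one. All 22 genes of the G2/M list, which DREAM is known to silence, also rose, from 0.19 to 3.73 with a median of 1.59. CCNA2 (2.39), CDC20 (2.04) and BUB1 (1.45) were among them. In that list the E2F letters stood in windows of 2 of the 19 genes that have one. The cell cycle homology letters TTTGAA stood in windows of 13 of the 19, against 15.2% of all windows. The list counts are of genes, which can have more than 1 window each, while the 15.2% is of windows. The windows of E2F1, E2F2 and RBL1 did not hold TTTGAA, which overlapped no E2F letters in the window of E2F3, the member that held both. CLSPN shares exons with an antisense gene and CCNA2 with EXOSC9, so both values are uncertain.

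Of 11 genes through which E2F1 is known to promote apoptosis 10 were tested, of which 3 rose, 4 fell and 3 were not called, with a median of 0.10. Those shares were close to the 35.4% higher and 35.8% lower of all entries. APAF1, the core of the apoptosome, rose by 2.19 ± 0.07 (SE) on the log2 scale, from 11.8 ± 0.652 to 54.0 ± 1.29 CPM. The BH3-only genes PMAIP1 and HRK fell, PMAIP1 from 200.3 ± 3.78 to 57.3 ± 1.56 CPM (-1.80, SE 0.04) and HRK from 17.4 ± 2.44 to 4.61 ± 0.175 CPM (-1.91, SE 0.13). On the log2(FPKM + 1) scale the HRK change was -1.20. APAF1 shares exons with ANKS1B on the opposite strand.

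**Figure D4:**
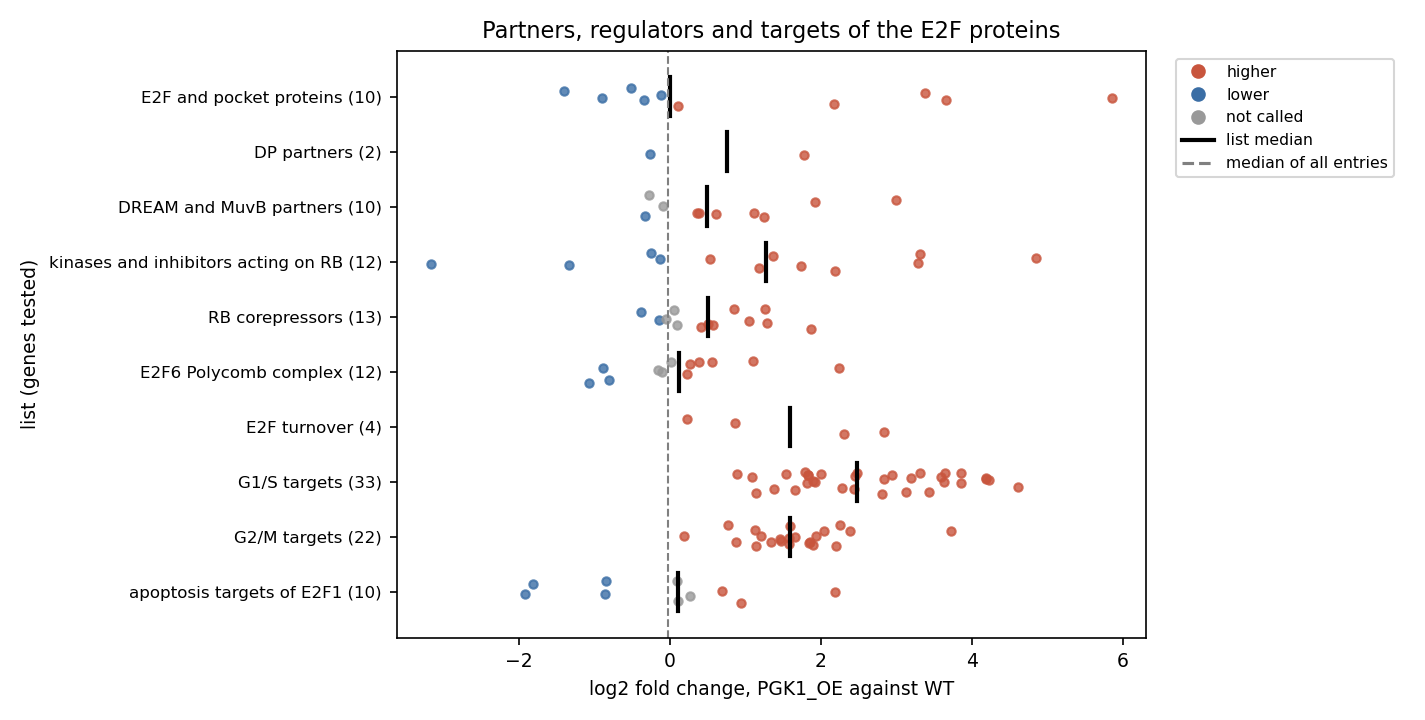
Log2 fold change of every tested gene of each list (points, red higher, blue lower, grey not called), with the list's median (black bar) and the median of all entries (dashed line). All points of the G1/S and G2/M lists lie above 0, while the E2F and pocket protein genes spread from -1.40 to 5.85.

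Within each group, E2F1 and the G1/S genes were low in the same libraries. WT replicate 2 had the lowest E2F1 of the WT libraries, and it had the lowest value for 28 of the 33 G1/S genes, with summed levels of 764, 636 and 767 CPM in WT replicates 1, 2 and 3. In PGK1_OE, replicate 1 had the lowest E2F1 and the lowest value for 30 of the 33 genes, with sums of 3376, 3823 and 3709 CPM. Of the other members that rose, only RBL1 was lowest in these same libraries. E2F8 was lowest in WT replicate 2 but in PGK1_OE replicate 3 (12.8 CPM). E2F2 and RB1 were lowest in PGK1_OE replicate 1 but not in WT replicate 2. For the G2/M list WT replicate 2 was lowest for 20 of 22 genes, whereas in PGK1_OE replicate 1 was lowest for 11 and replicate 2 for 10. WT replicate 2 was also lowest for 8 of 10 DREAM and MuvB partners, 9 of 13 corepressors and 7 of 12 Polycomb genes. It was lowest for 4 of 12 kinases and inhibitors, 4 of 10 apoptosis genes, 1 of 4 turnover genes and 1 of 2 DP genes. The share of all entries lowest in a given library was not computed, so these low values are not shown to be particular to E2F targets. Within WT the coefficient of variation of normalised CPM was 40.7% for E2F1 and 46.5% for E2F8, but 4.27% for RBL1 and 0.898% for E2F3. These are descriptions of 3 libraries a group, with no test.

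The genes most like the extreme members over the 6 libraries were sought by the root mean square difference of centred log2 CPM. These log2 CPM carry a prior count of 2, which raises very low values such as those of E2F2 in WT. The candidates were 10643 entries for E2F2 and 10642 for E2F5, with a symbol and a mean log2 CPM of at least 2. E2F2 itself lay below that level, so genes as low as E2F2 were not among its candidates. For E2F2, the member with the largest rise, the nearest candidates were CLSPN (0.58), PGK1 itself (0.60) and the origin recognition subunit ORC1 (0.74). The edgeR log2 fold changes of these 3 genes were 4.61, 4.60 and 4.23, below the 5.85 of E2F2. They come from the count fit without that prior count, so this gap is not on the scale of the distances. The change of ORC1 was 2.66 as log2(FPKM + 1). For E2F5, the member with the largest fall, they were TRIML2 (0.03), the AP-1 subunit gene JUN (0.04) and TGDS (0.04), which fell by 1.38, 1.37 and 1.45 on the log2 scale. The 6 points of each profile fall into 2 groups, so this likeness is a description with no test.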

How the data were processed

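PolyA RNA from 6 HT1080 libraries was analysed, grouped by sample title, with table columns matched through the sample descriptions. The read counts deposited by the authors are whole numbers for each gene with no normalisation. FPKM are as the authors deposited them, scaled by gene length and library size. The submitters' processing notes name fastp, HISAT and hg38. The sources used here give no version, read counter, strand setting or annotation.

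Counts were filtered with filterByExpr, scaled by TMM and tested two-sided in R 4.3.3 with edgeR 4.0.16 (robust quasi-likelihood, group as the only term, adjusted over 14322 entries). SEs were derived from the fold change and the F statistic (size over root F). The steps were tested on simulated counts. Alternatives used DESeq2 1.42.0, limma 3.58.1 (voom, or a trend on log2 FPKM plus 1 or 0.1), other scalings and filters, a replicate block, and leaving out each library. FPKM fits kept entries of at least 1 FPKM in 3 libraries, except 1 without that filter.

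Members and lists were chosen with earlier results of these data known. Named genes are the members, PGK1, RBL2, CCND1, CCNE1, CDKN1A, in each list the 3 genes of smallest adjusted p (all where at most 4 were tested) and the 3 nearest profiles of the extreme members among entries with a mean log2 CPM of at least 2. CCND2, CCND3, CDK2, CDK4, CDKN1B, CDKN2A, CDKN2B, CDKN2C, CDKN2D, DYRK1A, MYBL1, MYBL2 and RBIS were named after their values were seen. Coordinates and exon overlaps are from GENCODE 29 (GRCh38), matched by identifier for all 10 members, and promoter windows from RefSeq.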

Additional observations from a re-analysis of the deposited data

How the results depend on the processing

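No member, and no other gene that the naming rule picked, changed direction under any of the 18 alternatives in which it was tested. The number of members called higher was 5 and fell to 3 on log2(FPKM + 1) and 3 on log2(FPKM + 0.1), where E2F2 was below the FPKM minimum and RB1 was not called. Without 1 library at a time, 4 to 5 members were called higher and 4 to 5 lower. The 8 members other than E2F3 and RB1 were called under every alternative in which they were tested, at the stricter threshold of 0.01 too. Over all entries, the counts called higher ranged from 4810 to 5022 and lower from 4800 to 4955 without 1 library at a time. Of the list counts under the alternatives, 16 moved by over 1.5 times and 308 did not. The 16 were all numbers of genes called lower. The DREAM and MuvB list went from 1 to 3 with library totals and on the FPKM scales and to 2 without PGK1_OE replicate 1. The corepressors went from 2 to 1 with no low-count filter, DESeq2, the replicate block, the 0.01 threshold, and without any 1 library except PGK1_OE replicate 2. The E2F6 Polycomb list went from 3 to 5 with library totals, and the kinases and inhibitors from 4 to 2 at the 0.01 threshold. With the replicate block, 4973 entries were higher and 4970 lower, 5 members were higher and 4 lower, and E2F3 was the member whose call was lost (adjusted p = 0.0602). Same-numbered libraries deviated from their group means with correlations of -0.01, -0.01 and 0.10. With 3 libraries a group this cannot decide whether they were paired, and the labels do not say. Depth limits E2F2 in WT, with 7 counts in all, and E2F8 in WT, with 123.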
